A study of Mus musculus with 6 samples.

Results

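The vascular endothelial growth factor (VEGF) system was followed in RNA of small extracellular vesicles, the membrane-bound particles that cells release, from mouse embryonic cortical neurons. Its members were the 9 genes chosen by symbol out of 53379 genes in the tables: 4 ligands (Vegfa, Vegfb, Vegfc and Pgf), 3 receptors (Flt1, Kdr and Flt4) and 2 co-receptors (Nrp1 and Nrp2). There were 3 libraries of control cultures, which the series text calls normoxic, and 3 of cultures treated with OGD/R, which is read here as the group that it calls hypoxic. All 6 carry the genotype label WT, and no age, dose or duration is given in the sources used here. The labels do not spell out OGD/R, and nothing in them ties the 3 replicates of a group to separate cultures. A p-value here is thus set against library-to-library spread, part or all of which may be technical.

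VEGF ligands are secreted dimers that bind receptor tyrosine kinases on the cell surface. Vegfa acts mainly through Kdr (VEGF receptor 2), while Flt1 (VEGF receptor 1) binds Vegfa tightly, signals weakly and also exists as a soluble form that holds the ligand back. Vegfb and Pgf (placental growth factor) bind Flt1, and Vegfc binds Flt4 (VEGF receptor 3), the receptor of lymphatic endothelium. Nrp1 and Nrp2 (neuropilins) present VEGF ligands to these receptors and also bind class 3 semaphorins, which steer axons. In the brain, Vegfa is known as a gene that low oxygen induces through hypoxia-inducible factor (HIF), and it acts on vessels and on neurons.

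The sequences just upstream of Kdr, Vegfa and Vegfb are shown because Kdr had the largest difference between the groups, Vegfa is the best known HIF target of the family, and Vegfb was the one member with a higher mean after OGD/R. Each is the 250 bases before the RefSeq start site nearest to the annotated start of the gene (RefSeq, GRCm38.p6, read 5′ to 3′ on the strand of the gene, which is the minus strand for all 3). The windows lie at chr5:75978456-75978705 for Kdr, chr17:46032378-46032627 for Vegfa and chr19:6987652-6987901 for Vegfb. Capitals mark the core of the HIF motif, searched as ACGTG and GCGTG on both strands.
Kdr: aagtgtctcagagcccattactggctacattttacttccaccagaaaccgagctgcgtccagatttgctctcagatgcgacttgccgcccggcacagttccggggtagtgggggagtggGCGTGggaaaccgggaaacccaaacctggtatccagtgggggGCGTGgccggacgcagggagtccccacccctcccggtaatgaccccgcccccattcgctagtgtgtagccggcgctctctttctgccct
Vegfa: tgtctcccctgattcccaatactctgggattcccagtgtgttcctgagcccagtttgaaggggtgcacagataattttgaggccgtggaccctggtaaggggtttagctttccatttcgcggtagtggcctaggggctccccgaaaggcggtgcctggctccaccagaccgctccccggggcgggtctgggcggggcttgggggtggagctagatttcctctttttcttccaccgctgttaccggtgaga
Vegfb: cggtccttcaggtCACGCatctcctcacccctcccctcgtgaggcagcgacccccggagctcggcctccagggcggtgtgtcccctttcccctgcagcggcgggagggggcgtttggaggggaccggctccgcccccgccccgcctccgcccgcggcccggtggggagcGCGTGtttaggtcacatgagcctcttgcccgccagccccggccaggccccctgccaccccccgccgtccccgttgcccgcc
All 9 members were found in the RefSeq table. The start sites used for Pgf, Flt4 and Nrp1 lay 477, 416 and 469 bases inside the annotated gene, so these windows lay within it. ACGTG was in 0 of the 9 windows, against 16.6% of the 32851 windows of the same length in the table. GCGTG was in 6 of the 9, against 28.2% of all windows: there were 2 matches each in Kdr, Vegfb and Nrp2 and 1 each in Flt1, Pgf and Nrp1, none overlapping another. The windows of the members had 59.2 to 76.4% G and C, above the median of 52.4% over all windows. A match is a description of letters and not a binding site, and windows without one say nothing of the factor.

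The tables give FPKM, the fragments per kilobase of gene, scaled to all fragments counted on genes. Combined with the gene lengths of GENCODE M21 they give back whole reads for 96.5% of the genes in all libraries, and for all 9 members. The libraries held 1092724 to 1494499 fragments on genes in control and 1320916 to 2141611 in OGD/R, and a member rested on 5 to 385 reads in a library. Intervals on these reads are exact Poisson intervals at 95% and cover counting error only. A short non-coding entry, Gm23935, took 0.297 to 4.31% of the fragments in control and 49.5, 1.95 and 24.4% in OGD/R 1, 2 and 3. FPKM divides by all fragments, and named protein-coding genes (those without a predicted Gm symbol) took 66.7 to 70.8% of them in control and 34.2, 69.0 and 49.9% in OGD/R 1, 2 and 3. The median log2 fold change of the 44125 genes tested was -0.44, and after each library was centred on its own median it was 0.01. Amounts of RNA per vesicle and numbers of vesicles cannot be told apart in such libraries.

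All 9 members were detected in all 6 libraries, and all passed the filter of a mean of at least 1 FPKM. So did 19533 of the 20381 named coding genes, so passing is no trait of the family. The share of genes detected in all libraries was not computed. None differed between the groups past an adjusted p of 0.05 (limma on log2(FPKM + 1), Benjamini-Hochberg over all genes tested), where 0.0159% of all genes did. The means of 8 members were lower after OGD/R and that of Vegfb was higher, beside 74.9% of all genes tested with a log2 fold change below 0. Against the median of all genes tested, 5 members lay below (Vegfa, Pgf, Kdr, Flt4 and Nrp1) and 4 above (Vegfb, Vegfc, Flt1 and Nrp2). The median log2 fold change over the 9 was -0.66. Kdr was the single member with an unadjusted p under 0.05 (6.13% of all genes tested reach this and are lower). It was also the single member whose groups did not overlap in FPKM, which was so for 10.8% of all genes in the lower direction.

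**Figure D1:**
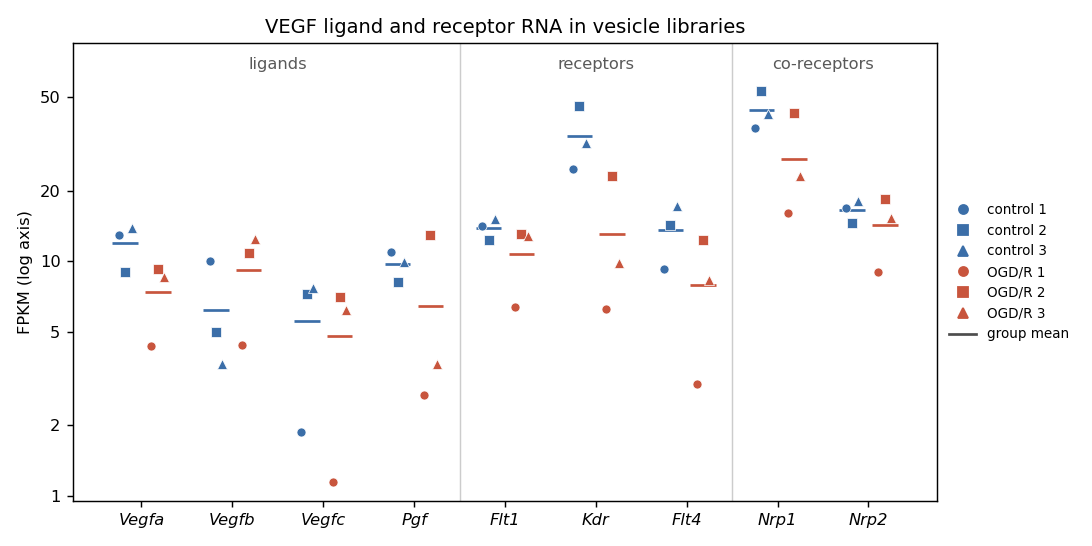
FPKM (log axis) of the 4 ligands, 3 receptors and 2 co-receptors in each of the 3 control (blue) and 3 OGD/R (red) libraries, with bars at the group means. Kdr in OGD/R lies between 6.23 and 23.0 FPKM, below the 24.7 to 46.0 of control, while the groups overlap for the other 8 members.

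Among the ligands, Vegfa (ENSMUSG00000023951, chromosome 17, 46016993 to 46032369, GRCm38) had 13.0, 9.02 and 13.8 FPKM in control 1, 2 and 3 and 4.33, 9.22 and 8.56 in OGD/R 1, 2 and 3. OGD/R 1 was the lowest library, and OGD/R 2 lay just above control 2, so the groups overlapped. The means were 11.9 ± 2.55 and 7.37 ± 2.65 FPKM (SD, n = 3), with a log2 fold change of -0.66 ± 0.46 (SE) and an adjusted p of 0.776 in limma (-0.37 without OGD/R 1). These values rested on 32 to 71 reads per library. Vegfa is the member in which low oxygen is best known to raise the mRNA in cells. Its log2 fold change in these vesicles differed by -0.22 from the median of all genes tested and stood above 30.3% of the 19533 named coding genes tested.

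Vegfb (ENSMUSG00000024962, chromosome 19, 6982473 to 6987651), a ligand of Flt1 linked to survival of neurons and to fatty acid uptake, had 10.0, 4.97 and 3.66 FPKM in control and 4.37, 10.8 and 12.4 in OGD/R. OGD/R 2 and 3 were above all controls, and OGD/R 1 lay between control 2 and 3. The means were 6.21 ± 3.35 and 9.19 ± 4.25 FPKM, and the log2 fold change of 0.49 ± 0.57 (SE) had an adjusted p of 0.821 in limma. It lay 0.93 above the median of all genes tested, higher than in 95.9% of the named coding genes. Only 7 to 21 reads per library stand behind it. In control 3 the 7 reads have an interval of 2.81 to 14.4, and in OGD/R 3 the 21 reads have one of 13.0 to 32.1.

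Vegfc (ENSMUSG00000031520, chromosome 8, 54077606 to 54187096), the ligand that drives growth of lymphatic vessels, was the lowest of the family. It had 1.87, 7.22 and 7.65 FPKM in control and 1.14, 7.06 and 6.18 in OGD/R. One library in each group, control 1 with 5 reads and OGD/R 1 with 6, was far below the others, and the other 4 libraries lay close together. The log2 fold change was -0.24 ± 0.73 (SE; adjusted p = 0.940, limma), the widest error of the 9.

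Pgf (ENSMUSG00000004791, chromosome 12, 85166635 to 85177790), which binds Flt1 alone among the receptors, had 11.0, 8.16 and 9.97 FPKM in control. In OGD/R it had 2.69, 13.0 and 3.64 FPKM. OGD/R 1 and 3 were below all controls and OGD/R 2 was above them all. The log2 fold change was -0.78 ± 0.59 (SE; adjusted p = 0.794, limma), and leaving out OGD/R 2 moved it to -1.36 (adjusted p = 0.248) and leaving out OGD/R 1 to -0.40 (adjusted p = 0.970).

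Among the receptors, Kdr (ENSMUSG00000062960, chromosome 5, 75932827 to 75978458), the main signalling receptor of Vegfa, had 24.7, 46.0 and 31.9 FPKM in control 1, 2 and 3. In OGD/R 1, 2 and 3 it had 6.23, 23.0 and 9.84 FPKM. All 3 OGD/R libraries were below all 3 controls, though OGD/R 2 was close to control 1. The reads were 160, 385 and 282 in control and 79, 197 and 77 in OGD/R. The means were 34.2 ± 10.8 and 13.0 ± 8.83 FPKM, 2.62 times higher in control, with a log2 fold change of -1.47 ± 0.53 (SE; unadjusted p = 0.0224, adjusted p = 0.712, limma). Only 3.20% of the named coding genes tested had a lower log2 fold change.

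The call on Kdr depended on the test and on the total that reads were compared with. A test on the recovered reads, limma-voom, with all fragments on genes as totals called Kdr (log2 fold change -1.62 ± 0.40 SE, adjusted p = 0.0191), as it did 0.546% of the genes it tested. With the reads on named protein-coding genes as totals it did not (-1.03 ± 0.29 SE, adjusted p = 0.199), and there 0.111% of genes were called. With 1 library left out, chosen after seeing the data, Kdr was called in 2 of 6 runs with all fragments as totals, those without control 1 (adjusted p = 0.0336) and without OGD/R 2 (0.000787), and in 0 of 6 with coding totals (0.0844 to 0.950). The libraries lowest in Kdr, OGD/R 1 and 3, were also those with 49.5 and 24.4% of fragments on Gm23935. The coding totals leave out that entry together with all other entries that are not named protein-coding genes. A fit with that entry alone left out was not run.

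Flt1 (ENSMUSG00000029648, chromosome 5, 147561604 to 147726011), the high-affinity and partly decoy receptor, had 14.2, 12.3 and 15.2 FPKM in control and 6.37, 13.1 and 12.8 in OGD/R. Apart from OGD/R 1 the libraries lay within a narrow range. The log2 fold change of -0.40 ± 0.44 (SE; adjusted p = 0.809, limma) was 0.05 above the median of all genes tested, close to that of the typical gene. The tables count all transcripts of a gene together, so the soluble form and the membrane form cannot be told apart.

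Flt4 (ENSMUSG00000020357, chromosome 11, 49609263 to 49652739), the receptor of Vegfc, had 9.22, 14.3 and 17.2 FPKM in control and 2.99, 12.3 and 8.35 in OGD/R. OGD/R 2 lay above control 1, and OGD/R 1 and 3 lay below all controls. The log2 fold change was -0.84 ± 0.56 (SE; adjusted p = 0.768, limma), and -0.35 without OGD/R 1. A stretch of 146 bases of its longest transcript is 96.6% alike to the pseudogene Olfr1372-ps1. No other member shared 100 or more bases with another gene at 90% identity.

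Among the co-receptors, Nrp1 (ENSMUSG00000025810, chromosome 8, 128358604 to 128503363) had the highest FPKM of the family. It had 36.9, 53.0 and 42.4 FPKM in control and 16.0, 42.7 and 23.1 in OGD/R, above at least 95.7% of the named coding genes in every library. That rank is by deposited FPKM. By the length that all its exons cover, Nrp1 had 5.96 FPKM in OGD/R 1, and its rank by that length is not given here. OGD/R 1 and 3 were below all controls, and OGD/R 2 lay within their range. The log2 fold change was -0.77 ± 0.45 (SE; adjusted p = 0.750, limma), on 111 to 273 reads per library, and -0.46 without OGD/R 1. The microRNA gene Mir1903, which shares exon sequence with Nrp1 on the same strand, was listed at 0 in all libraries.

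Nrp2 (ENSMUSG00000025969, chromosome 1, 62703285 to 62818695), the neuropilin that pairs with Flt4 in lymphatic vessels, had 16.9, 14.5 and 18.1 FPKM in control and 8.96, 18.5 and 15.3 in OGD/R. OGD/R 1 was low and OGD/R 2 was the highest library of all. The log2 fold change of -0.25 ± 0.42 (SE; adjusted p = 0.881, limma) lay 0.19 above the median of all genes tested.

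**Figure D2:**
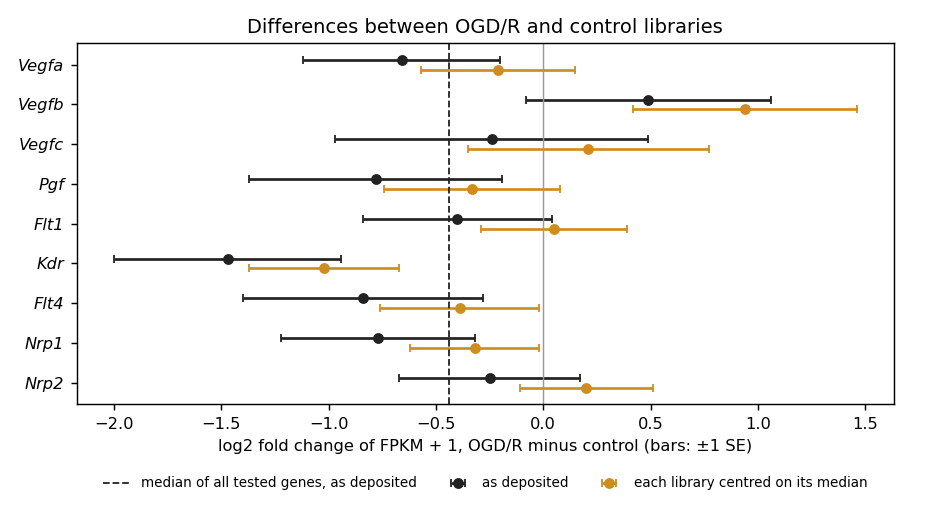
Log2 fold changes of FPKM + 1 (OGD/R minus control) with bars of 1 SE from limma, as deposited (black) and after each library was centred on its median (orange), with the median of all tested genes as a dashed line. Kdr is the lowest at -1.47 as deposited, Vegfb the highest at 0.49, and after centring 4 of the 9 lie above 0.

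The sign of the smaller differences moved with the scaling and with single libraries. With each library centred on its median, 5 members were lower and 4 higher, and Vegfc, Flt1 and Nrp2 were those that changed sign. With the scaling as deposited, Vegfc was at 0.00, 0.04 and 0.37 without control 2, control 3 and OGD/R 1, Nrp2 at 0.03 and Flt1 at -0.09 without OGD/R 1. Leaving out OGD/R 1, where the median level of all genes was lowest, raised the log2 fold change of all 9 members (Kdr to -1.08 and Vegfb to 0.90). The sign of Vegfa, Vegfb, Pgf, Kdr, Flt4 and Nrp1 was the same in all 16 other settings (those that combine limma-voom with a library left out are not among them). The range over these was -1.95 to -1.01 for Kdr and 0.23 to 1.10 for Vegfb.

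As a share of the reads on named protein-coding genes, a scale that leaves out Gm23935, Kdr took 21.9, 38.5 and 26.7 of 100000 such reads in control and 10.8, 19.8 and 11.7 in OGD/R. On this scale, too, all OGD/R libraries were below all controls, and the mean was 2.06 times higher in control (29.0 ± 8.52 against 14.1 ± 4.94, SD, n = 3). Nrp2 took 17.0, 13.8 and 17.2 of 100000 reads in control and 17.6, 18.1 and 20.6 in OGD/R, so here all OGD/R libraries lay above the controls, in part by small margins. Groups did not overlap in the lower direction for 5.53% of genes on this scale and in the higher direction for 4.74%, and among the members for 1 in each. Vegfb took 1.92, 0.900 and 0.662 in control and 1.64, 2.01 and 3.19 in OGD/R, a mean 1.96 times higher after OGD/R with overlap of the groups. The groups overlapped for Vegfa, at 5.94 ± 1.34 and 4.97 ± 0.833, and for Flt1, at 13.8 ± 1.60 and 14.6 ± 2.76. In limma-voom with these totals Nrp2 had a log2 fold change of 0.23 ± 0.28 (SE; adjusted p = 0.914) and Vegfb one of 1.10 ± 0.72 (SE; adjusted p = 0.819).

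**Figure D3:**
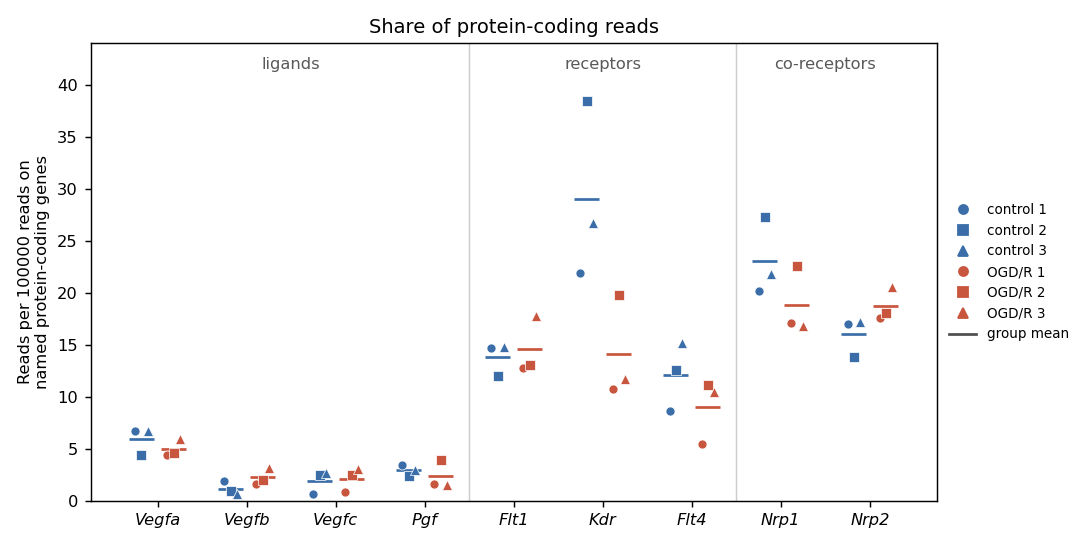
Reads of each member per 100000 reads on named protein-coding genes in each library (control blue, OGD/R red, bars at group means). Kdr is below 20 in all 3 OGD/R libraries and above it in all 3 controls, and Nrp2 in OGD/R is 17.6 to 20.6 against 13.8 to 17.2 in control.

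Across all 6 libraries the order of levels per length was Nrp1 (35.7 ± 13.7 FPKM, SD, n = 6), Kdr (23.6 ± 14.6), Nrp2 (15.4 ± 3.51), Flt1 (12.4 ± 3.11), Flt4 (10.7 ± 5.0), Vegfa (9.65 ± 3.41), Pgf (8.07 ± 4.12), Vegfb (7.70 ± 3.79) and Vegfc (5.19 ± 2.90). Receptors and co-receptors thus stood above the ligands in the means of the deposited FPKM. None of the 8 pairs of neighbours in this order differed past an adjusted p of 0.05 (exact two-sided sign-flip permutation test over libraries, Benjamini-Hochberg over 8 pairs). With 6 libraries a pair could pass only if most of the 8 pairs reached the smallest possible p together. The lack of a call therefore does not show that neighbours were alike. Nrp1 was above Kdr in 6 of 6 libraries and Nrp2 above Flt1 in 6 of 6 (both unadjusted p = 0.0312, the smallest that 6 libraries allow, and adjusted p = 0.125). The other 6 pairs changed places in at least 1 library.

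The order, its top included, rested on the gene length used. The deposited FPKM of Nrp1 divides by 3645 bases, the longest transcript, while its exons together cover 9785 bases. With the covered length, Kdr came first (15.5 ± 9.56 FPKM) and Nrp1 second (13.3 ± 5.11), and Flt1 went from above Flt4 to below Vegfa. The means of Flt1 and Vegfa were then 6.31 and 7.77 FPKM, so not every receptor stood above every ligand by this length. Vegfc was last by both lengths. The ratio of a gene's FPKM between groups does not depend on its length, apart from the 1 FPKM added in the log2 fold changes.

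Ratios within a library do not depend on its total, apart from the 1 FPKM added to each value. The log2 ratio of Vegfa to Vegfb was 0.35, 0.75 and 1.67 in control and -0.01, -0.21 and -0.49 in OGD/R. The means were 0.92 ± 0.68 and -0.24 ± 0.24 (SD, n = 3). Vegfa had the higher FPKM in all controls and Vegfb in OGD/R 2 and 3, while in OGD/R 1 they were level (4.33 and 4.37 FPKM, and 3.49 each by the covered exon length). Few Vegfb reads stand behind this, 12, 20 and 21 in OGD/R against 32, 46 and 39 of the longer Vegfa. The summed ligands stood lower against the summed receptors in control (-0.41, -1.28 and -0.86) than in OGD/R (-0.29, -0.27 and -0.01). The log2 ratio of Flt1 to Kdr was -0.76, -1.82 and -1.02 in control and 0.03, -0.76 and 0.35 in OGD/R, so the balance was on the side of Kdr in all controls, and control 1 and OGD/R 2 met. Nrp1 exceeded Nrp2 in deposited FPKM in all 6 libraries. By the covered exon length Nrp1 lay just below Nrp2 in OGD/R 3 (8.59 and 8.69 FPKM). The log2 ratios of Nrp1 to Nrp2 in deposited FPKM were 1.08, 1.80 and 1.18 in control and 0.77, 1.16 and 0.56 in OGD/R, which overlapped. The groups thus did not overlap in 2 of these 4 ratios. The ratios were not tested, and the share of other gene pairs without overlap was not computed, so nothing is read from that count.

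**Figure D4:**
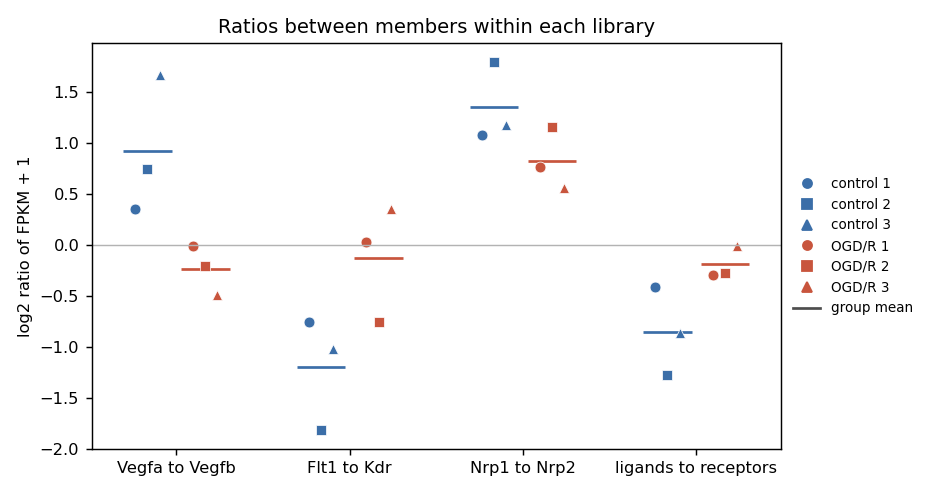
Log2 ratios of FPKM + 1 between members within each library (control blue, OGD/R red, bars at group means). The Vegfa to Vegfb ratio lies between 0.35 and 1.67 in control and between -0.49 and -0.01 in OGD/R, and the Flt1 to Kdr ratio touches at -0.76.

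The genes around the family were mostly lower too, as most genes were. Of 77 tested genes in 5 lists, 8 were higher and 69 lower after OGD/R, and 0 passed in limma (2 had an unadjusted p under 0.05, as did 6.76% of all genes tested). With limma-voom, which tested most of the 77, 1 passed with all fragments as totals and 0 with coding totals. Signalling genes below the receptors had a median log2 fold change of -0.39 over 40 genes (5 higher and 35 lower). Prkca, protein kinase C alpha, had 12.5 ± 5.62 FPKM in control and 5.42 ± 3.13 in OGD/R (SD, n = 3; adjusted p = 0.728, limma).

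Oxygen-sensing genes upstream of Vegfa had a median log2 fold change of -0.50 over 10 genes, 1 higher and 9 lower. Ep300, a coactivator of HIF, had 17.5, 23.7 and 19.7 FPKM in control and 6.88, 13.0 and 9.97 in OGD/R, without overlap (log2 fold change -0.99 ± 0.41 SE, adjusted p = 0.720, limma). Vhl, which marks HIF for degradation, had 12.9 ± 4.74 and 7.22 ± 5.03 FPKM (adjusted p = 0.757, limma). The class 3 semaphorins and plexins, which share the neuropilins, had a median of -0.32 over 12 genes. Sema3b had 9.16 ± 3.29 and 4.80 ± 0.626 FPKM (adjusted p = 0.761) and Sema3d 6.54 ± 3.76 and 3.38 ± 0.905 (adjusted p = 0.798, limma).

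The angiopoietins and Tie receptors, another signalling system of vessels, had a median of -0.38 over 5 genes. Their receptors Tie1 (9.58 ± 2.95 and 5.39 ± 2.19 FPKM) and Tek (13.5 ± 2.96 and 10.4 ± 3.77) had adjusted p-values of 0.775 and 0.819 in limma. The PDGF ligands and the receptor kinases related to the VEGF receptors, together with Vegfd, had a median of -0.63 over 10 genes, all 10 of them lower. Kit, the stem cell factor receptor and a neighbour of Kdr on chromosome 5, had 17.1, 31.0 and 14.9 FPKM in control and 5.79, 13.1 and 5.63 in OGD/R. As for Kdr, its groups did not overlap and it did not pass (-1.29 ± 0.50 SE, adjusted p = 0.720, limma). Flt3 had 18.2 ± 3.79 and 10.3 ± 6.61 FPKM (adjusted p = 0.740).

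Markers of endothelial cells, in which Kdr and Flt1 are strongest in brain, were listed in the vesicles beside those of the labelled cell type. The median of 15 pan-neuronal markers was 10.2 ± 1.36 FPKM in control and 8.08 ± 1.91 in OGD/R (SD over libraries), and that of 18 endothelial markers was 7.64 ± 1.22 and 5.34 ± 2.39. In control the mural, microglia, astrocyte and erythroid lists had medians of 9.51, 8.46, 6.99 and 5.94 FPKM. The median log2(FPKM + 1) of all genes tested was 2.73 to 3.07 in control libraries and 1.93 to 3.06 in OGD/R. The endothelial median thus lay near the level of a typical gene, and is no sign particular to endothelium. The summed endothelial markers were 171 to 220 FPKM in control and 84.6 to 204 in OGD/R, and those of 10 mural markers 116 to 148 and 39.0 to 117. No endothelial marker was at 0 in all libraries, and Cldn5, Ramp2, Sox18 and Ly6c1 were at 0 in at least 1. Of the 17 tested, 1 was higher and 16 lower and 0 passed in limma (2 had an unadjusted p under 0.05) or in limma-voom, and the list median of -0.43 was 0.02 above that of all genes tested. Vwf, the clotting factor of endothelium, had 40.8 ± 8.46 and 20.0 ± 6.17 FPKM (adjusted p = 0.720, limma). Ramp2, a receptor-modifying protein of endothelium, had 10.4 ± 0.659 and 3.37 ± 4.68 (adjusted p = 0.720, limma). The part of endothelial RNA in the Kdr values was not tested.

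Over the 6 libraries, after centring on the library median, Kdr and Nrp1 varied together (Pearson r = 0.95), as did Flt1 and Nrp2 (0.89) and Vegfb and Nrp2 (0.85), while Kdr and Nrp2 went in opposite directions (-0.75). These are the extremes of 36 pairs over 6 points that share libraries and groups, and are given as a description. Of 13338 named coding genes, those most like Kdr were Csmd2 (r = 0.995), Fam207a (0.990) and Tns3 (0.989), those like Nrp1 included Shkbp1 (0.996) and Runx1t1 (0.989), and those most like Vegfa were Cd300c2 (0.987), Tie1 (0.985) and Pabpc1 (0.981). The genes named are the extremes over only 6 libraries. Of the 13338 genes, 233, 166 and 105 had an r over 0.9 with Kdr, Nrp1 and Vegfa. The cause of these high values was not tested.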

How the data were processed

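RNA of extracellular vesicles was sequenced in 6 libraries, taken up in Trizol and prepared with the Epi mini longRNA-seq kit, per the labels' protocols. The authors deposited 1 table per library of FPKM for 53379 Ensembl genes. The names of the tables mention HTSeq, and the aligner, build and annotation are not given in the sources used here. When a few entries take many fragments, the FPKM of every other gene falls. Of the identifiers, 53274 were found in GENCODE M21 (GRCm38), and FPKM times the longest transcript gave reads, called whole within 0.01.

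HypEV and NorEV of the series text were read as the OGD/R and control labels. Log2(FPKM + 1) was kept for genes averaging 1 FPKM or more and fitted with limma 3.58.1 (R 4.3.3, eBayes with trend, no covariates), and limma-voom on recovered reads was an alternative. Functions were tested on simulated data. Sequences alike were found with blastn 2.17.0 (90% identity). Other steps used Python 3.11.15, pandas 2.3.3, scipy 1.17.1 and matplotlib 3.10.9. The labels do not say whether replicate numbers pair the libraries, and the main fit did not pair them. Deviations of same-numbered libraries correlated at 0.04, 0.10 and -0.06, which cannot decide whether they were paired. The members, lists and alternatives were chosen with earlier results of these data known. All 9 members are named, and of each list the 2 genes of smallest p. Kdr and Vegfb were chosen for their sequences after their values were seen. A few genes that these rules take are left out here. For likeness, the 3 genes of highest r with Vegfa, Kdr and Nrp1 were taken among coding genes averaging 5 FPKM or more.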

Additional observations from a re-analysis of the deposited data

How the results depend on the processing

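Under limma on FPKM no member passed with a pseudocount of 0.1, no filter, a mean of at least 5 FPKM, median centring, quantile normalization, no trend, array weights, a replicate block or 1 library left out. In limma-voom with all fragments as totals 1 member, Kdr, passed, and 0 to 3 did with 1 library left out, the 3 (Kdr, Flt4 and Nrp1) without OGD/R 2. In limma-voom with coding totals 0 passed, with all libraries or with 1 left out. Over all genes, the 7 called became 0 with a pseudocount of 0.1, no filter, median centring, no trend or a replicate block, 75 with array weights, 231 and 47 in limma-voom with all and with coding totals, and 0 to 71 with 1 library left out, 71 without OGD/R 2. The cause was not tested. With the replicate block Kdr had an adjusted p of 0.597. The order of levels gave 0 pairs past the threshold in all settings; 5 libraries cannot give a p below 0.0625. The difference between OGD/R and control in each log2 ratio kept its sign with a pseudocount of 0.1 and with 1 library left out. Depth limits Vegfb and Vegfc most, at 5 to 28 reads per library.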

Other observations

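Markers of other cells that a cortical culture could hold were also listed in the vesicles. In all 6 marker lists, neuronal and endothelial ones included, 0 of 68 tested markers passed in limma. Of the 68, 6 had an unadjusted p under 0.05 in limma, beside 6.76% of all genes tested. None passed in limma-voom, which tested most of the 68. Acta2, smooth muscle actin of mural cells, had 51.9, 42.9 and 36.4 FPKM in control and 8.13, 26.8 and 7.23 in OGD/R, without overlap (log2 fold change -1.79 ± 0.53 SE, adjusted p = 0.622, limma). C1qc, a complement gene of microglia, had 16.0, 8.82 and 17.2 FPKM in control and 3.11, 8.62 and 2.52 in OGD/R (adjusted p = 0.720, limma). Both were lowest in OGD/R 1 and 3, the libraries in which the median of all genes was lowest too. They were picked from their lists for a small p, and of the 10 tested markers of each list 2 mural and 3 microglia markers had a log2 fold change above 0. Astrocyte and radial glia markers had a median log2 fold change of -0.15 over 10 genes, microglia markers one of -0.25 over 10, mural markers one of -0.50 over 10 and erythroid markers one of -0.71 over 6, beside -0.44 for all genes tested.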
